A study of Macaca mulatta with 21 samples.

Results

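S100 proteins are small calcium-binding proteins found in vertebrates. Most work as dimers: calcium opens a hydrophobic face on each subunit, built from a pair of EF-hand loops, and that face docks onto other proteins, among them annexins, cytoskeletal myosin and p53. Most genes of the family sit side by side in a cluster, and each cell type carries its own assortment of them. S100A4 is also known as fibroblast-specific protein, S100A10 is the light chain of annexin A2 and the member that has lost calcium binding, and S100B is used as a marker of glia and melanocytes.

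The family was followed here over 7 groups of rhesus macaque cells, with 3 Affymetrix rhesus arrays (A, B and C) per group and 21 arrays in all. Of 10 listed members (S100A1, S100A2, S100A4, S100A6, S100A10, S100A11, S100A13, S100A14, S100A16 and S100B), 9 were named by at least 1 probe set, and S100A13 was not analysed here. The 9 genes held 17 of the 52865 probe sets: 3 for S100A6, 2 for S100A14, 6 for S100A16 and 1 for each of the other genes. In the rhesus assembly T2T-MMU8v2.0, 8 of the 9 lie on chromosome 1, in the order S100A1, S100A14, S100A16, S100A2, S100A4, S100A6, S100A11 and S100A10 with further S100 genes between them, while S100B lies on chromosome 3.

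ORMES23, a male line, is the conventional embryonic stem cell line of the series and was derived from an IVF blastocyst. Nuclear transfer, in which a somatic nucleus is placed into an egg, gave the cloned blastocysts behind both other embryonic stem cell lines, the male CRES-1 and the female CRES-3. RiPS1 (male, from fetal skin fibroblasts), RiPS2 (female, from skin of an animal aged 10 years) and RiPS3 (female, aged 8 years) were induced from fibroblasts by retroviruses carrying OCT4, SOX2, KLF4 and cMYC. The remaining group is skin fibroblasts of an adult female aged 8 years. The labels name no nucleus donor for the cloned lines, and each line is a single derivation, so every p-value speaks for these lines and not for a route of reprogramming. Every group, the fibroblasts included, was grown on mitotically inactivated mouse embryonic fibroblasts. Colonies were picked by hand for RNA, and the fibroblasts were trypsinised.

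The deposited values are log2 intensities, with array medians between 4.98 and 5.14, and correlations between arrays ran from 0.864 to 0.996. The number of arrays limits their precision. All 7 pluripotency markers measured averaged under log2 5, a level near background, in the fibroblasts; ZFP42 did so too in CRES-1 and in the induced lines, and the other 6 were above it in every pluripotent line. Of 10 fibroblast markers, PRRX1, FAP and LUM averaged under log2 5 in every pluripotent line. The mean of the 10 ran from 6.46 to 7.46 on the pluripotent arrays and from 10.15 to 10.29 on the fibroblast arrays.

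All 9 genes reached log2 5 on at least 3 arrays, as did 16 of their 17 probe sets. A gene was called in a comparison at an adjusted p under 0.05 (limma, adjusted over all 11142 genes tested) with a difference of at least 2-fold. In short, the fibroblasts carried far more S100A4, and more S100A6 and S100A11, than any pluripotent line, and S100A1 was the member with higher levels in all 6 pluripotent lines. S100A10, S100A16 and S100B were not called in any comparison. Among the pluripotent lines the spread was led by S100A6 and S100A4, with CRES-1 at the high end and CRES-3 at the low end. For S100A6, CRES-3 was at the low end only on the brightest probe set, and the range was smaller on the others. RNA came from bulk cultures, so fewer cells of a kind and less RNA per cell cannot be told apart.

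S100A4 binds non-muscle myosin and is associated with motile mesenchymal cells. It measured 13.84, 11.76 and 12.75 (log2, arrays A, B and C) in the fibroblasts, 6.96, 7.24 and 6.93 in ORMES23, 8.38, 8.04 and 7.77 in CRES-1 and 6.02, 5.92 and 6.59 in CRES-3. In the induced lines it measured 6.79, 7.14 and 6.88 in RiPS1, 7.95, 7.07 and 7.50 in RiPS2 and 7.71, 7.58 and 7.25 in RiPS3. The dimmest fibroblast array thus lay well above the brightest pluripotent array, CRES-1 A, and the fibroblasts also had the widest spread (12.78 ± 1.04, SD, n = 3). CRES-1 had the highest mean of the pluripotent lines (8.06 ± 0.31, SD, n = 3), although RiPS2 array A lay above its dimmest array, and CRES-3 lay below all other lines without overlap (6.18 ± 0.36, SD, n = 3). The lines between them overlapped with their neighbours in the order RiPS3, RiPS2, ORMES23, RiPS1.

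S100A6, or calcyclin, binds annexins and the calcyclin-binding protein and is abundant in many proliferating cells. On the probe set with the highest mean (MmugDNA.17370.1.S1_at) it measured 12.34, 11.92 and 12.20 in the fibroblasts, 9.48, 9.57 and 9.52 in ORMES23, 11.06, 10.81 and 10.25 in CRES-1 and 8.24, 7.60 and 8.70 in CRES-3. The induced lines gave 9.60, 9.97 and 9.14 (RiPS1), 11.16, 10.18 and 9.88 (RiPS2) and 10.30, 9.87 and 10.20 (RiPS3). The fibroblasts were again above every other array and the 3 CRES-3 arrays were below every other array. CRES-1, RiPS2, RiPS3, RiPS1 and ORMES23 followed each other from high to low with overlapping neighbours.

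S100A11 partners annexin A1. It measured 13, 12.94 and 12.72 in the fibroblasts, 10.25, 10.52 and 10.63 in ORMES23, 11.19, 11.14 and 10.68 in CRES-1 and 9.66, 9.87 and 9.63 in CRES-3. The induced lines gave 10.67, 10.38 and 10.83 (RiPS1), 11.04, 9.68 and 10.49 (RiPS2) and 10.33, 10.13 and 9.79 (RiPS3). CRES-1 led the pluripotent lines and CRES-3 closed them, but here every neighbouring pair of pluripotent lines overlapped, and only the fibroblasts stood clear.

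S100A1, best known from heart and skeletal muscle, where it acts on calcium handling, had the opposite pattern. It measured 4.78, 5.13 and 4.54 in the fibroblasts, 7.60, 6.95 and 6.84 in ORMES23, 6.87, 6.96 and 6.94 in CRES-1 and 7.69, 7.44 and 7.61 in CRES-3. The induced lines gave 8.14, 7.92 and 7.53 (RiPS1), 6.50, 7.04 and 6.58 (RiPS2) and 7.64, 8.03 and 7.52 (RiPS3). Every pluripotent array exceeded every fibroblast array, and the fibroblast mean of 4.82 ± 0.30 (SD, n = 3) was under log2 5, so fold changes of S100A1 against the fibroblasts are given as lower bounds counted from that level. RiPS1, RiPS3 and CRES-3 were at the top of the order and RiPS2 at the bottom, with all neighbouring pluripotent lines overlapping.

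**Figure D1:**
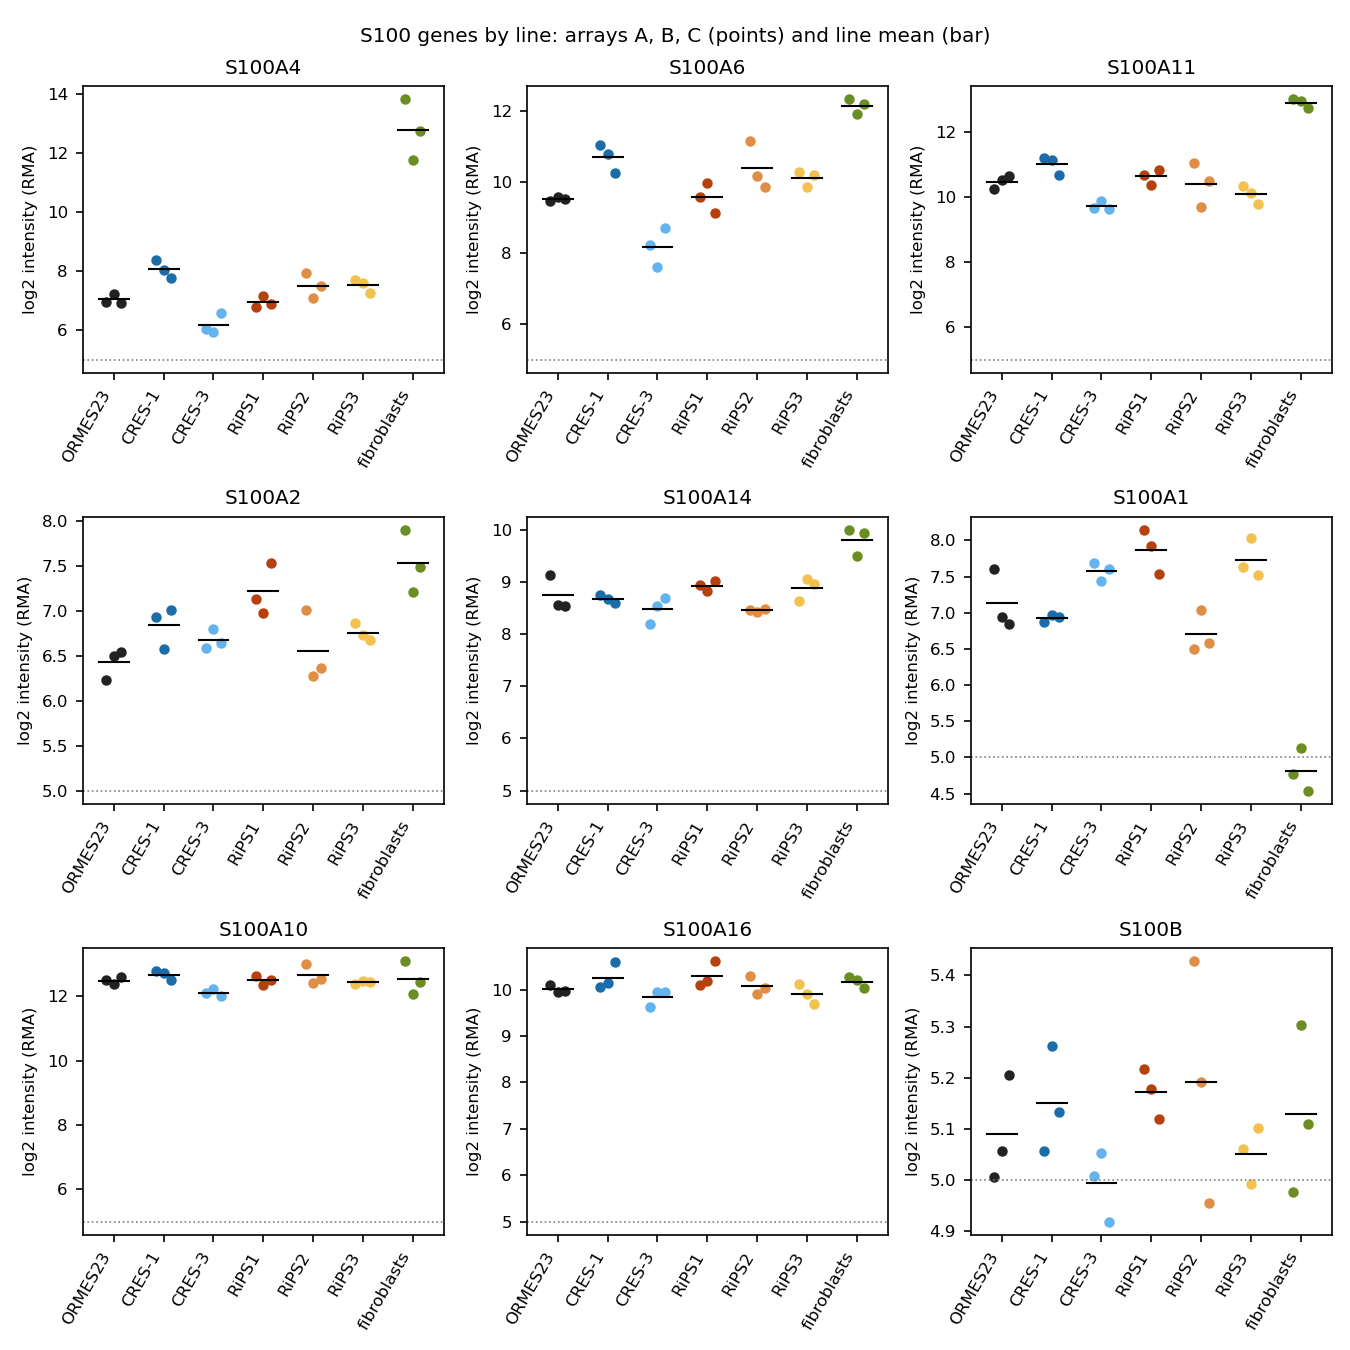
Log2 intensity (vertical axis, own range in each panel) of the 9 S100 genes on the arrays of the 7 groups; points are arrays, bars are means of 3 arrays, and the dotted line marks log2 5. S100A4, S100A6 and S100A11 stand highest in the fibroblasts, S100A1 lowest there, and S100A10, S100A16 and S100B differ little between groups.

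S100A14, S100A2 and S100A16 are best known from epithelia. S100A14 averaged 9.81 ± 0.28 (SD, n = 3) in the fibroblasts, above all pluripotent arrays, whose line means ran from 8.45 in RiPS2 to 8.92 in RiPS1. S100A2 averaged 7.53 ± 0.34 in the fibroblasts and 7.21 ± 0.29 in RiPS1, which overlapped. The lowest S100A2 mean was 6.42 ± 0.17 in ORMES23 (SD, n = 3 each), and every pair of neighbours in the order of lines overlapped. S100A16 line means ran only from 9.84 in CRES-3 to 10.30 in RiPS1, with the fibroblasts at 10.17 inside that span.

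S100A10 and S100B differed little between groups, at opposite ends of the intensity range. S100A10 was bright in all groups, with line means from 12.11 in CRES-3 to 12.67 in CRES-1 and 12.53 ± 0.51 (SD, n = 3) in the fibroblasts, where its arrays read 13.09, 12.08 and 12.42. CRES-3 was the line set apart at the low end: its 3 arrays (12.10, 12.23 and 12.01) were below all other pluripotent arrays, and fibroblast array B lay within its range. S100B averaged from 4.99 in CRES-3 to 5.19 in RiPS2, near background throughout, so its values carry little information on differences. Genes outside the list behaved like S100B: of 10 further S100 genes, 6 had a probe set, all their values lay between 2.64 and 6.06, and neither of the 2 tested (S100A5 and S100P) was called by limma in any comparison (2 of their 34 tests had an unadjusted p under 0.05).

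The first set of comparisons asked how the pluripotent lines differ from skin fibroblasts. The 6 comparisons share the fibroblast arrays, so their values are given side by side and are not independent of each other. The members called were 6 of 9 in ORMES23 (32.6% of all genes tested were called there), 5 in CRES-1 (30.6%), 5 in CRES-3 (33.3%), 4 in RiPS1 (32.8%), 5 in RiPS2 (31.8%) and 4 in RiPS3 (32.5%). By direction, 5 members were lower in ORMES23 (14.1% of genes were lower), 4 in CRES-1 (14.2%), 4 in CRES-3 (14.2%), 3 in RiPS1 (13.5%), 4 in RiPS2 (14.6%) and 3 in RiPS3 (14.2%). The 1 higher member was S100A1 in each case, while higher calls made up 18.5%, 16.4%, 19.1%, 19.3%, 17.2% and 18.3% of all genes in the same order of lines. The median log2 difference over the 9 members was -1.06, -0.69, -0.86, -0.32, -0.98 and -0.78, against 0.02 to 0.05 for all genes.

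S100A4 was lower in all 6 lines, by between 26.4-fold in CRES-1 (log2 difference -4.72, SE 0.36) and 97.4-fold in CRES-3 (-6.61, SE 0.36), with adjusted p of at most 3.15e-09. S100A11 was lower in all 6, by between 3.69-fold in CRES-1 (-1.88, SE 0.25) and 8.98-fold in CRES-3 (-3.17, SE 0.25), with adjusted p of at most 3.81e-06. S100A6 was lower in all 6 on the probe set used, by between 2.73-fold in CRES-1 (-1.45, SE 0.31, adjusted p 0.000595) and 15.7-fold in CRES-3 (-3.98, SE 0.31). For these 3 genes the smallest difference was in CRES-1 and the largest in CRES-3.

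S100A1 was higher in all 6 lines, by at least 3.27-fold in RiPS2 (log2 difference 1.89, SE 0.21) and at least 7.29-fold in RiPS1 (3.05, SE 0.21), with adjusted p of at most 4.54e-07. S100A14 was lower in ORMES23 (-1.06), CRES-1 (-1.14), CRES-3 (-1.34) and RiPS2 (-1.35; SE 0.17 each), and at -0.88 in RiPS1 and -0.92 in RiPS3 it missed 2-fold. These values lie close to the 2-fold limit: without fibroblast array A the ORMES23 value was -0.97, without fibroblast array C -1.0, without ORMES23 array B -0.97 and without ORMES23 array C -0.96, none of them called, while without fibroblast array B RiPS1 (-1.04) and RiPS3 (-1.08) were called, as was RiPS3 without its array B (-1.01). Its other probe set (MmugDNA.40899.1.S1_at) read 4.78 to 5.09 in line means, near background, and was called in no line.

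S100A2 was lower in ORMES23 (-1.11, SE 0.20, adjusted p 0.000111) and uncalled in the other lines, where it ran from -0.98 in RiPS2 to -0.32 in RiPS1. Leaving out fibroblast array A ended the ORMES23 call (-0.92), and leaving out fibroblast array B or C, or RiPS2 array A, gave a call for RiPS2 (-1.14, -1.01 and -1.21). Without fibroblast array B CRES-3 was called as well (-1.02). S100A10 differed by -0.42 to 0.13 over the 6 lines (95% intervals within -0.83 to 0.54), S100A16 by -0.33 to 0.13 (within -0.68 to 0.49) and S100B by -0.14 to 0.06, with the smallest adjusted p of the 3 genes at 0.0647. For S100A10 and S100A16 these intervals stayed inside 2-fold on the probe sets used. They rest on a spread pooled over the lines (within-line SD 0.25 for S100A10). The fibroblast arrays of S100A10 had an SD of 0.51, so its intervals may be too narrow. Another S100A16 probe set, MmugDNA.10775.1.S1_at, averaged 7.17 in CRES-1 and 6.54 in the fibroblasts.

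**Figure D2:**
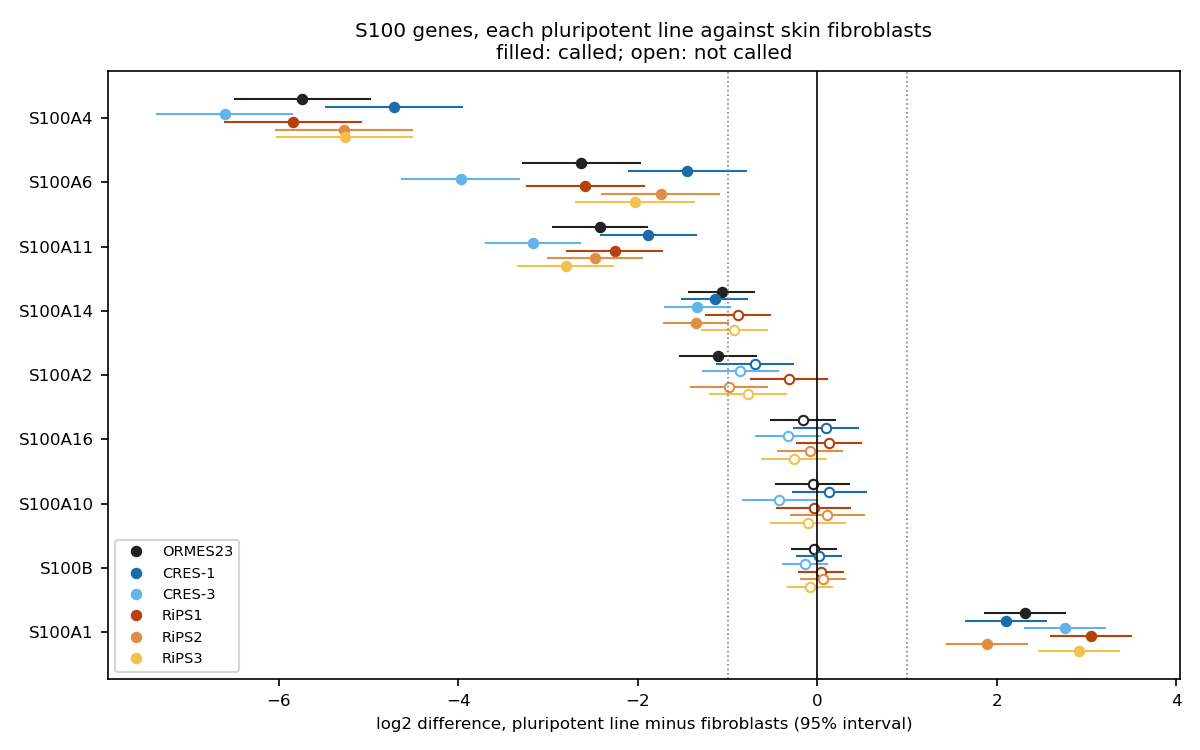
Log2 difference of each S100 gene between each pluripotent line and the fibroblasts (horizontal axis), with 95% intervals from limma; filled points were called, and dotted lines mark 2-fold. S100A4 lies between -6.61 and -4.72, S100A1 between 1.89 and 3.05, and S100A10, S100A16 and S100B lie near 0.

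S100A6 is read by 3 probe sets, and they did not give the same order of the pluripotent lines. Against the fibroblasts all 3 were lower in every line, but for MmugDNA.43216.1.S1_at that direction was fixed beforehand. All its pluripotent arrays were near background, and it was kept for testing only through its fibroblast arrays. It therefore adds no separate evidence on direction. MmugDNA.17370.1.S1_s_at differed by -4.01 in CRES-1 to -5.85 in RiPS2 (SE 0.41). MmugDNA.43216.1.S1_at read -2.87 in CRES-1 to -3.33 in RiPS1 (SE 0.21), and the sizes of these differences are lower bounds. With every probe set tested as its own feature, the shares called among 18348 probe sets were 32.2% in ORMES23, 29.8% in CRES-1, 32.8% in CRES-3, 32.3% in RiPS1, 31.4% in RiPS2 and 31.8% in RiPS3. The difference from the fibroblasts in RiPS2 was -1.75 on the probe set used and -5.85 on the _s_at probe set, so its size depends on the probe set.

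The _s_at probe set measured 13.72, 13.23 and 13.43 in the fibroblasts, 8.86, 8.56 and 8.10 in ORMES23, 9.72, 9.57 and 9.07 in CRES-1 and 7.55, 7.99 and 8.12 in CRES-3. The induced lines gave 8.47, 8.44 and 8.54 (RiPS1), 8.65, 6.89 and 7.30 (RiPS2) and 8.82, 8.27 and 7.01 (RiPS3). CRES-1 again led the pluripotent lines, without overlap, but CRES-3 was no longer set apart: ORMES23, RiPS1, RiPS3, CRES-3 and RiPS2 followed with overlapping neighbours, and RiPS2 and RiPS3 had wide spreads (SD 0.92 and 0.93, n = 3 each). Over the 18 pluripotent arrays, which share lines and cultures, the probe set used correlated with the _s_at set at r = 0.39 and with MmugDNA.43216.1.S1_at at r = 0.36. The latter averaged 3.60 to 4.06 in the pluripotent lines, under the level taken as near background, and 6.93 ± 0.58 (SD, n = 3) in the fibroblasts.

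**Figure D3:**
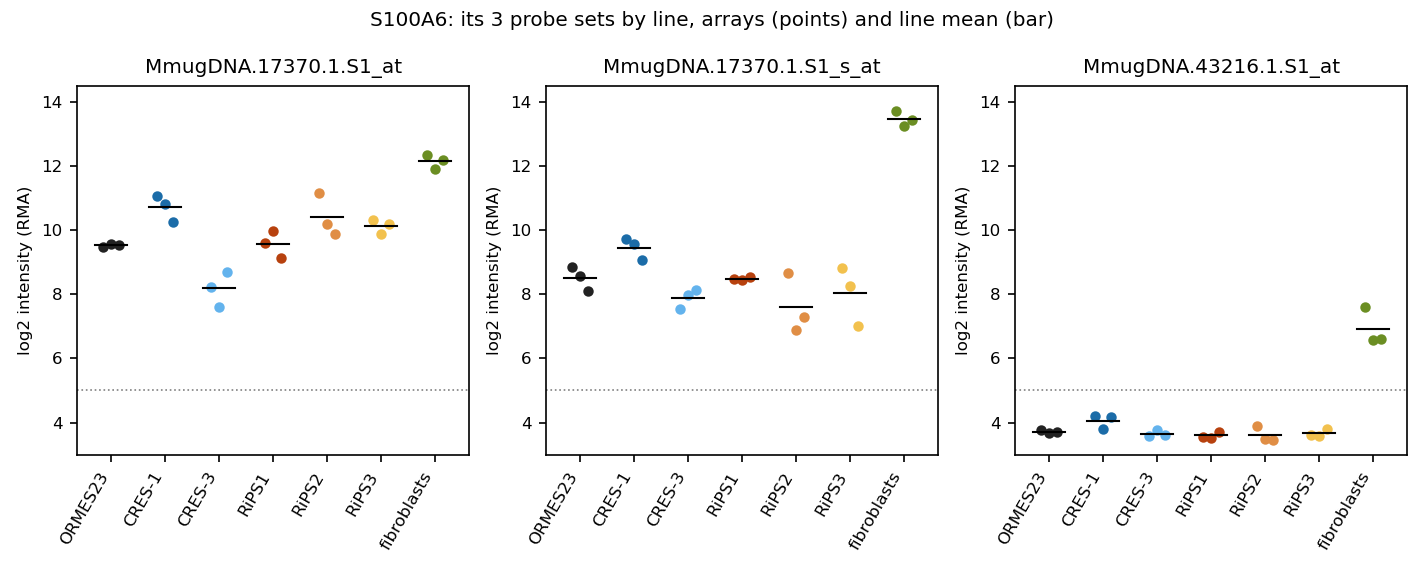
Log2 intensity of the 3 S100A6 probe sets (vertical axis) on the arrays of the 7 groups, with means of 3 arrays. The fibroblasts are highest on all 3, CRES-3 is set apart at the low end on 1 of them, and CRES-1 is the highest pluripotent line on all 3. On MmugDNA.43216.1.S1_at all pluripotent arrays are near background.

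The next comparisons set each reprogrammed line against ORMES23, the line from a fertilised blastocyst, whose arrays they share. S100A6 was lower in CRES-3 on the probe set used (log2 difference -1.35, SE 0.31, 95% interval -2.0 to -0.69, adjusted p 0.0271), the 1 member called there, beside 0.996% of all genes. The _s_at set gave -0.62 (SE 0.41, adjusted p 0.501) and MmugDNA.43216.1.S1_at -0.06, neither called, where 0.981% of probe sets were called. MmugDNA.43216.1.S1_at was under log2 5 in both lines, near background. The call was lost without ORMES23 array B (-1.32, adjusted p 0.0915) or C (-1.35, 0.0901) and without CRES-3 array A (-1.37, 0.0908) or B (-1.06, 0.166). The direction was the same in each of those fits. The mean of 10 fibroblast markers was 7.0 in ORMES23 and 6.61 in CRES-3, with TWIST1 called lower in CRES-3 (-2.22, adjusted p 0.0108), and among 7 trophoblast and amnion markers GATA3 was lower (-2.70, adjusted p 0.0460). Of 5 glial, neural and melanocyte markers tested, 1 was called, the melanocyte gene MLANA, higher in CRES-3 (1.32, adjusted p 0.0192; means 5.25 in ORMES23 and 6.57 in CRES-3). MITF of the same list differed by 0.12, uncalled, and PMEL and TYR averaged under log2 5 in both lines. The part of the called markers in the S100A6 result was not tested.

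No member was called between ORMES23 and the other reprogrammed lines. The shares of all genes called were 0% for CRES-1, 2.4% for RiPS1, 0.458% for RiPS2 and 0.772% for RiPS3. The members at an unadjusted p under 0.05 in the limma fit numbered 3, 2, 1 and 1 of 9. Of all 11142 genes, 1268, 2314, 1327 and 1627 were under that level, in the same order of lines. S100A6 read 1.18 higher in CRES-1 (95% interval 0.53 to 1.84, adjusted p 0.185) and S100A4 1.02 higher (0.26 to 1.77, adjusted p 0.305), both uncalled. In RiPS1, S100A2 (0.79, adjusted p 0.0201) and S100A1 (0.73, adjusted p 0.0402) passed the p threshold at under 2-fold.

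Cloned and induced lines of the same labelled sex were then compared. Between the females, S100A6 was lower in CRES-3 than in RiPS3 by 3.85-fold (-1.94, SE 0.31, 95% interval -2.60 to -1.29, adjusted p 0.0113), in a comparison where 0.0359% of genes, 4 of 11142, were called. The other S100A6 probe sets read -0.14 (SE 0.41, 95% interval -1.0 to 0.71, adjusted p 0.998) and -0.01 (0.0382% of probe sets called), so this difference rests on a single probe set. It was lost when CRES-3 array A (-1.97, adjusted p 0.0824) or B (-1.65, 0.139) or RiPS3 array B (-2.07, 0.0593) or C (-1.91, 0.0658) was left out. S100A4 differed by -1.34 (95% interval -2.09 to -0.58, adjusted p 0.211), without overlap between the arrays and without a call. Of 10 fibroblast markers limma called 0 between CRES-3 and RiPS3, with 2 at an unadjusted p under 0.05 (882 of all 11142 genes).

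Between the males, S100A6 was higher in CRES-1 than in RiPS1 by 2.20-fold (1.14, SE 0.31, 95% interval 0.48 to 1.79, adjusted p 0.0333), the 1 member called beside 2.14% of all genes. The _s_at set read 0.97 (SE 0.41, adjusted p 0.179), the same direction but uncalled, where 1.98% of probe sets were called. MmugDNA.43216.1.S1_at read 0.46 (adjusted p 0.202), also uncalled. It averaged 4.06 in CRES-1 and 3.60 in RiPS1, near background, so its sign carries little information. The call was lost without CRES-1 array A (0.96, adjusted p 0.157) or B (1.09, 0.0930) and without RiPS1 array A (1.15, 0.0899) or C (0.92, 0.107). S100A4 read 1.12 higher (adjusted p 0.0685), uncalled, and S100A1 0.94 lower (adjusted p 0.0107), just short of 2-fold. S100A1 was called without RiPS1 array C (-1.11, adjusted p 0.00664), and S100A4 when the fit held only the arrays of both lines (1.12, adjusted p 0.0168), where S100A6 missed the threshold (adjusted p 0.0540). In this comparison arrays of the same letter deviated together (r = 0.32, 0.33 and 0.35 for A, B and C). With the letter as a replicate block over all 21 arrays, S100A6 was called (adjusted p 0.0300) and S100A4 was not (0.0624). With that block and only the arrays of both lines, an alternative added after the data were seen, both were called (1.14, SE 0.15, adjusted p 0.0132, and 1.12, SE 0.17, adjusted p 0.0190), so the count rose from 1 to 2 members. Of 10 fibroblast markers limma called 0 between CRES-1 and RiPS1, with 2 at an unadjusted p under 0.05 (2449 of all 11142 genes). Among the 5 glial, neural and melanocyte markers MLANA was the 1 called, lower in CRES-1 (-1.19, adjusted p 0.0160; means 5.36 and 6.55). MITF of the same list differed by -0.19, uncalled, and PMEL and TYR averaged under log2 5 in both lines. The part of MLANA in the S100A6 result was not tested.

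**Figure D4:**
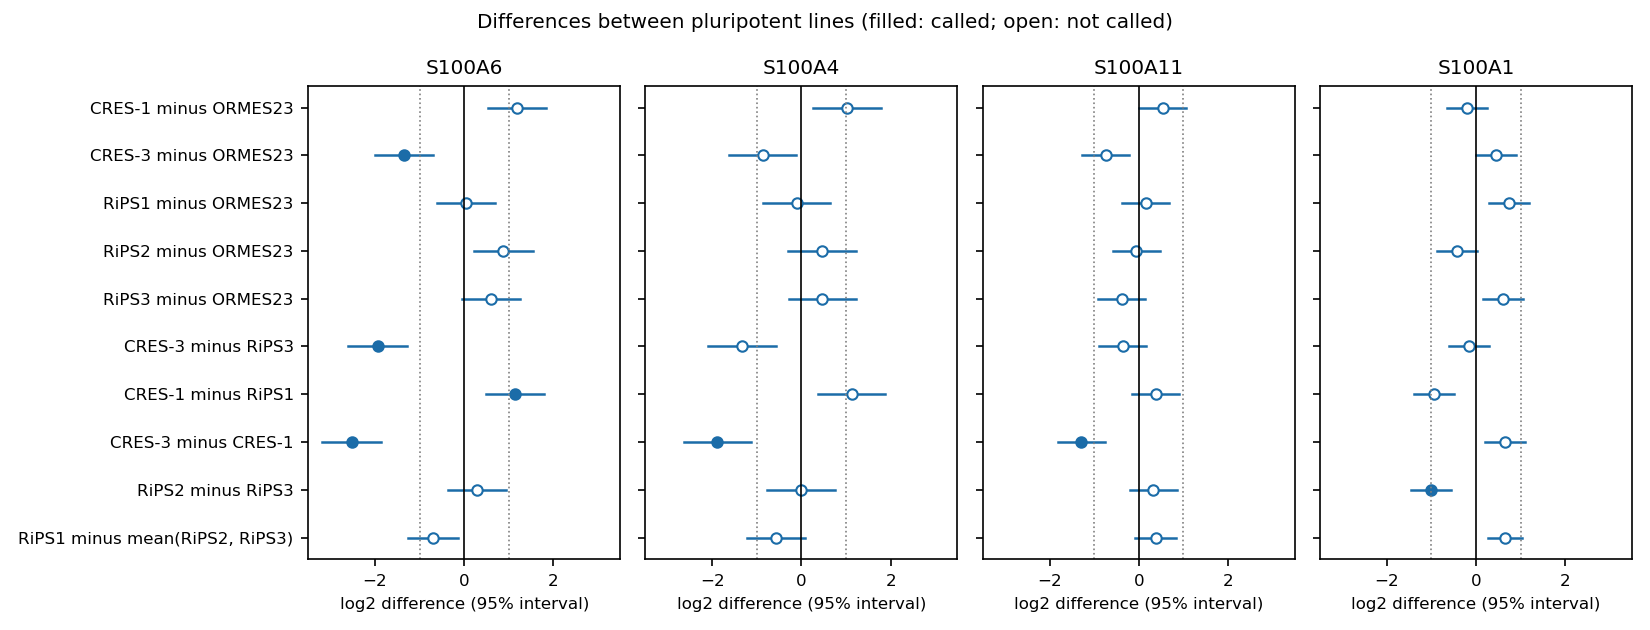
Log2 differences of S100A6, S100A4, S100A11 and S100A1 in 10 comparisons between pluripotent lines (horizontal axis), with 95% intervals from limma; filled points were called. The comparison of CRES-3 with CRES-1 has 3 of these genes called, all lower in CRES-3, with S100A6 at -2.53.

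Among the comparisons of pluripotent lines, the most members were called between the 2 cloned lines. CRES-3 had 3 of 9 members called, all lower than in CRES-1, where 2.61% of genes were called in either direction and 1.3% lower. S100A6 was 5.76-fold lower (-2.53, SE 0.31, 95% interval -3.18 to -1.87, adjusted p 0.000188), S100A4 3.69-fold lower (-1.89, SE 0.36, -2.64 to -1.13, adjusted p 0.00462) and S100A11 2.44-fold lower (-1.28, SE 0.25, -1.81 to -0.76, adjusted p 0.00538). For S100A6 the _s_at set was also called (-1.56, SE 0.41, adjusted p 0.0266; 2.72% of probe sets called), and MmugDNA.43216.1.S1_at read -0.41, uncalled. The arrays of both lines did not overlap for any of the 3 genes, and the count of 3 was the same without any 1 of the 6 arrays. S100A10 read -0.56 (adjusted p 0.0847).

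Markers of other cells differed between these lines too. The mean of 10 fibroblast markers was 7.31 in CRES-1 (7.03 to 7.46 over its arrays) and 6.61 in CRES-3 (6.46 to 6.71), and 2 of the 10 were called lower in CRES-3: COL1A2, a collagen chain (-1.92, adjusted p 0.0371), and TWIST1, a mesenchymal transcription factor (-2.11, adjusted p 0.00815). PRRX1, FAP and LUM averaged between 3.57 and 4.23 in both lines. The mean of 6 mesoderm markers was 7.14 in CRES-1 (6.97 to 7.33) and 6.30 in CRES-3 (6.02 to 6.58), with TBXT, the primitive streak gene, called lower (-1.48, adjusted p 0.0217). MLANA, 1 of 5 glial, neural and melanocyte markers, was called higher in CRES-3 (1.22, adjusted p 0.0162; means 5.36 in CRES-1 and 6.57 in CRES-3). The others of that list differed by 0.08 (MITF), 0.65 (GFAP), -0.09 (SOX10) and -2.05 (PAX6), none called. PMEL and TYR, listed but not tested, averaged under log2 5 in both lines. The part of the called markers in the S100 result was not tested.

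Among the induced lines, S100A1 was 2.03-fold lower in RiPS2 than in RiPS3 (-1.02, SE 0.21, 95% interval -1.46 to -0.57, adjusted p 0.0143), the 1 member called beside 1.18% of all genes. This value also sits at the limit: it was -0.92 without RiPS2 array A (adjusted p 0.0841), -0.96 without RiPS2 array C (0.0803) and -0.87 without RiPS3 array B (0.103), uncalled each time. S100A4 and S100A6 differed by -0.01 (95% interval -0.76 to 0.75) and 0.28 (-0.37 to 0.94). Of 10 fibroblast markers 1 was called between these lines, THY1, a surface glycoprotein, higher in RiPS2 (1.14, adjusted p 0.0481), and its part in the S100A1 result was not tested. RiPS1 against the mean of RiPS2 and RiPS3 had no member called, beside 2.51% of all genes. An unadjusted p under 0.05 in the limma fit was reached by 3 of 9 members and by 2848 of 11142 genes. S100A1 (0.65) and S100A2 (0.56) were past the adjusted p threshold at under 2-fold.

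With the line as the replicate, 2 cloned against 3 induced lines, limma called no member and 0% of genes. At an unadjusted p under 0.05 there were 79 of 11142 genes and 0 members. S100A6 differed by -0.59 (95% interval -2.40 to 1.22) and S100A4 by -0.20 (-1.57 to 1.17), so differences of over 2-fold in either direction lie within the intervals.

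Measured against all genes tested, S100A6 and S100A4 varied widely among the pluripotent lines. The range of the 6 line means was log2 2.53 for S100A6 (99.5th percentile of all genes), 1.89 for S100A4 (98.4th), 1.28 for S100A11 (94.3rd) and 1.16 for S100A1 (92.0th), beside a median of 0.44. The S100A6 rank rests on 1 of 3 probe sets: its range was 1.84 on the _s_at set, from CRES-1 to RiPS2, and 0.46 on MmugDNA.43216.1.S1_at, near background in these lines. Their spread within lines was high as well, with an SD of 0.48 for S100A4 (93.8th percentile), 0.41 for S100A6 (90.3rd) and 0.33 for S100A11 (81.5th) beside a median of 0.21. S100B was at the other end, with a range of 0.20 (8.32th percentile).

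S100A4 and S100A6, which are close neighbours in the cluster, ranked the pluripotent arrays in nearly the same way. Their correlation was r = 0.94 over 18 pluripotent arrays and 0.98 over 6 line means; arrays of a line share their culture, so these are descriptions. With the _s_at probe set of S100A6 the values were 0.53 and 0.50, and with MmugDNA.43216.1.S1_at, near background in these lines, 0.47 and 0.61. The likeness is thus close on 1 of 3 S100A6 probe sets and looser on the others. S100A10 and S100A11, the last members of the cluster order, correlated at 0.84 over the 18 arrays, and S100A1 correlated negatively with S100A10 (-0.50) and S100A4 (-0.46).

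**Figure D5:**
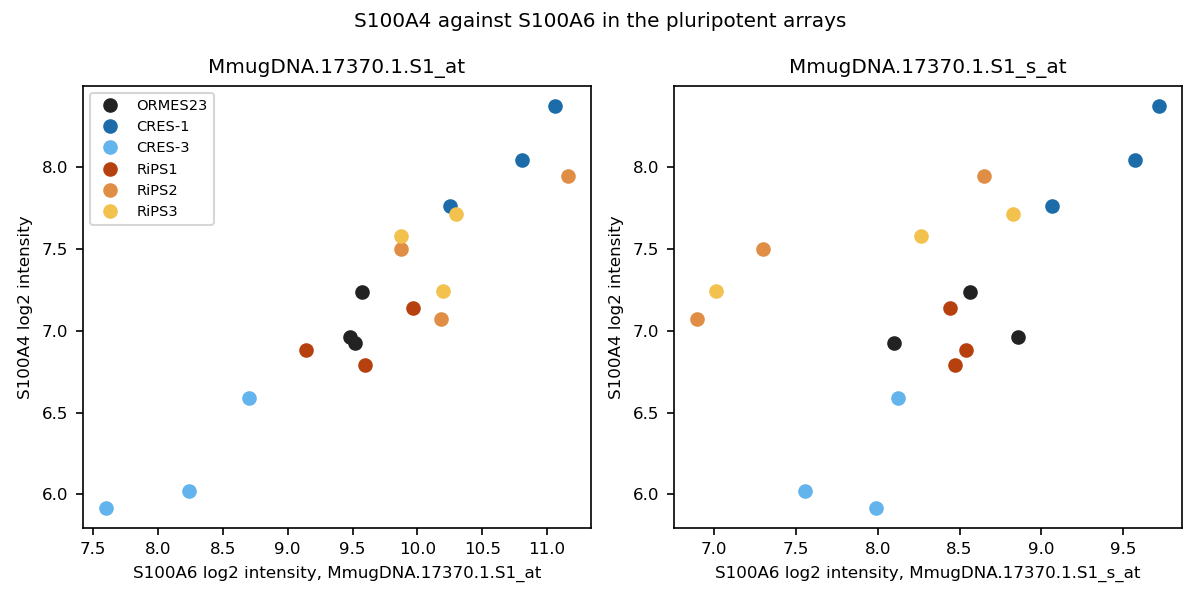
Log2 intensity of S100A4 (vertical axis) and of S100A6 on 2 of its probe sets (horizontal axis) on the 18 pluripotent arrays, coloured by line. The points follow a line on the first probe set (r = 0.94) and scatter on the other (r = 0.53).

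The genes most like a member were ranked by Pearson r, as a description. Over the 18 pluripotent arrays S100A6 was nearest to TIMP2, a metalloproteinase inhibitor (0.91), ZEB2, a mesenchymal transcription factor (0.91), and NFIX (0.91), and S100A4 to ZEB2 (0.94), TENT5A (0.91) and ZFHX3 (0.91). ZEB2 averaged 6.08 ± 0.51 in CRES-1 and 4.00 ± 0.54 in CRES-3 (SD, n = 3 each), the latter near background. S100A11 was nearest to ITGB1, the integrin beta-1 chain (0.94), EMP1 (0.94) and ANXA2 (0.93), and S100A1 to UACA (0.95), NSMCE1 (0.95) and HLTF (0.93). Over the 7 line means, where the fibroblasts weigh most, the nearest genes were TIMP2, BDNF and ZEB2 for S100A6 (0.98 to 0.99), ADAMTS5, TENT5A and B4GALNT1 for S100A4, KCTD10, MAFF and NLGN4X for S100A11, and SEMA4G, IGSF1 and ASB2 for S100A1. ADAMTS5 averaged under log2 5, near background, in every pluripotent line (4.38 to 4.76). So did ZEB2 in RiPS1 (4.70), and BDNF (4.47) and EMP1 (4.32) in CRES-3. SEMA4G (4.66) and IGSF1 (4.78) were under that level in the fibroblasts.

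Annexins are membrane-binding proteins that several S100 dimers join into pairs. Of 12 listed, 8 were tested, and against the fibroblasts 3 were lower in ORMES23, 2 in CRES-1 and 4 in each of the other lines, while 1 or 2 were higher. Of all genes, 13.5% to 14.6% were lower and 16.4% to 19.3% higher in these comparisons. Median differences ran from -0.95 to -0.34. ANXA1, the partner of S100A11, was lower in 5 lines (-2.62 in RiPS2 to -4.92 in CRES-3). In CRES-1 it read -2.07, uncalled by limma (adjusted p 0.0547). ANXA2, the partner of S100A10, was lower in CRES-3 (-1.48), RiPS1 (-1.07), RiPS2 (-1.02) and RiPS3 (-1.19). In ORMES23 (-0.95, adjusted p 9.94e-05 by limma) and CRES-1 (-0.78, adjusted p 0.000675) ANXA2 passed the p threshold at under 2-fold. ANXA6 was lower in all 6 lines (-1.46 to -2.13), as was ANXA4 (-1.44 to -2.26), and ANXA10, under log2 5 in the fibroblasts, was higher in all 6. Between pluripotent lines limma called 0 annexins, with 22 of 80 tests at an unadjusted p under 0.05. Of all 11142 genes, 882 to 2848 were under that level in each of these comparisons. CRES-3 against CRES-1 had 6 of 8 annexins under it, beside 2793 of 11142 genes. Of these annexins, ANXA9 read higher in CRES-3 (0.69) and the rest lower. ANXA2 (-0.70, adjusted p 0.0185 by limma) and ANXA6 (-0.54, adjusted p 0.0232) passed the adjusted p threshold there at under 2-fold. ANXA6 did so too in RiPS1 against the mean of RiPS2 and RiPS3 (0.43, adjusted p 0.0271).

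ANXA2 measured 14.15, 13.69 and 13.94 in the fibroblasts and between 12.27 (CRES-3 A) and 13.26 (CRES-1 A) on the pluripotent arrays. S100A10, its light chain, was thus uncalled against the fibroblasts in the 4 lines where ANXA2 was called lower. It was also uncalled in ORMES23 and CRES-1, where ANXA2 was lower by under 2-fold. Over the 18 pluripotent arrays ANXA2 correlated with S100A11 at 0.93 and with S100A10 at 0.85, and ANXA1 with S100A11 at 0.74. ANXA1 varied strongly within lines, with 10.94, 7.43 and 10.63 in RiPS2 and 6.85, 9.56 and 9.81 in ORMES23.

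Among other binding partners, targets and receptors (18 listed, 8 tested), MYH9, the heavy chain of non-muscle myosin that S100A4 binds, was lower in all 6 lines (-1.56 in CRES-1 to -1.94 in RiPS3). It measured 11.11, 11.03 and 11.02 in the fibroblasts and 8.88 to 9.67 on the pluripotent arrays, without overlap. MYH10 was lower in CRES-1 (-1.05) and S100PBP was higher in RiPS1 (1.32). Between pluripotent lines limma called 0 genes of this list, with 15 of 80 tests at an unadjusted p under 0.05. The background in each of these comparisons was 882 to 2848 of 11142 genes. List medians against the fibroblasts ran from -0.35 to -0.12.

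Other EF-hand genes gave a mixed picture. Of 20 tested, 4 were higher than in the fibroblasts in every line, and 7 to 9 were lower, where 16.4% to 19.3% of all genes were higher and 13.5% to 14.6% lower. Among the lower were CIB1 (-2.41 to -3.11) and SDF4, which resides in the Golgi (-2.20 to -2.42), and among the higher GCA and TESC, both under log2 5 in the fibroblasts. Between pluripotent lines GCA, or grancalcin, was higher in CRES-3 than in CRES-1 (1.92) and ORMES23 (2.58) and higher in RiPS2 (1.81) and RiPS3 (1.92) than in ORMES23, and TESC was lower in RiPS2 than in RiPS3 (-1.11). In CRES-3 against CRES-1, GCA and S100A6 were thus called in opposite directions. Of 16 listed epidermal genes that lie beside the S100 cluster, 2 were tested and limma called neither in any comparison (6 of their 34 tests had an unadjusted p under 0.05).

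The female pair and the male pair of cloned and induced lines gave S100A4 and S100A6 differences of opposite sign. The difference between the pairs was -3.08 for S100A6 (SE 0.44, adjusted p 0.000831) and -2.46 for S100A4 (SE 0.51, adjusted p 0.0100), and 2.89% of all genes were called in this test, which was added after the data were seen. On the _s_at probe set it was -1.11 for S100A6 (SE 0.58, adjusted p 0.306), uncalled. Labelled sex, line and donor stage cannot be told apart here, since each pair is a single cloned and a single induced line. RiPS1 came from fetal skin fibroblasts and RiPS3 from an animal aged 8 years.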

How the data were processed

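The authors deposited log2 intensities of each probe set after RMA (robust multi-array average), per the submitters' processing notes. The RMA version is not given in the sources used here. RMA puts all arrays on a shared scale, so differences are relative to the other probe sets. Of 52865 probe sets, 24969 carried 1 gene symbol in the platform annotation, 361 several and 27535 none. Where a gene had several probe sets, the one brightest on average stood for it, which gave 14132 genes. A filter of log2 5 on 3 arrays kept 11142 genes, and kept 18348 probe sets where each was tested alone. Tests used limma 3.58.1 (R 4.3.3) on all 21 arrays, each line having its own mean (residual degrees of freedom: 14), two-sided, with Benjamini-Hochberg adjustment across the genes of each comparison. The script was tested on simulated data. A fold is a lower bound where the dimmer line averages under log2 5. The members and gene lists were chosen with earlier results of these data known. All S100 members were named; genes of the pathway lists were taken from the called ones with the smallest p, at most 4 per list and comparison and not all of them, and called marker genes were named beside calls of members between pluripotent lines. ANXA1 was named outside this rule, as the partner of S100A11. No array pair was identical. Arrays A, B and C are biological replicates per the labels, without naming separate cultures, so p-values measure the spread between these samples. Correlations of deviations between arrays of the same letter ran from -0.40 to 0.44. All 3 letters were above 0.1 in 1 of 15 comparisons, CRES-1 minus RiPS1 (0.32 to 0.35), whose blocked values stand beside its result. Missing that limit elsewhere does not show that the arrays were unpaired. Letters A, B and C gave 0.24, -0.21 and 0.44 in RiPS1 minus ORMES23, and 0.12, 0.18 and 0.07 in CRES-3 minus fibroblasts.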

Additional observations from a re-analysis of the deposited data

Results flagged for a closer look

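The cloned line minus the induced line gave S100A6 differences of -1.94 in females (CRES-3 minus RiPS3) and 1.14 in males (CRES-1 minus RiPS1), and the difference between the pairs was -3.08 (SE 0.44, adjusted p 0.000831 by limma). For S100A4 the pairs gave -1.34 and 1.12, and the difference between them was -2.46 (SE 0.51, adjusted p 0.0100). Both were picked out because the same contrast differed between labelled sexes, by a test chosen once the data had been examined. The 12 arrays of the pairs are not shared between them. The pairs also differ in the donor of the induced line, fetal for RiPS1 and adult for RiPS3. On the other probe sets of S100A6 the difference was -1.11 (adjusted p 0.306) and -0.47 (adjusted p 0.399).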

How the results depend on the processing

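Of the members' differences, the 53 that were called, passed the p threshold or reached 2-fold were recomputed under 816 alternatives: 767 kept direction and call, 38 lost the call, 11 gained one and 0 reversed, and 37 differences were the same throughout. Some alternatives could not move a difference, only its SE or adjusted p. Among them were other probe set rules for a gene with 1 probe set, and each probe set tested alone, which was read from the brightest. Counts of members called moved as follows. With the mean of a gene's probe sets, or with the second brightest probe set (chosen after seeing the data), the count fell from 1 to 0 for CRES-3 minus ORMES23, CRES-3 minus RiPS3 and CRES-1 minus RiPS1; with the second brightest, 1 of 2 was left in the comparison of the pairs. With only the arrays of the lines compared it fell from 1 to 0 for CRES-3 minus RiPS3 (S100A6 adjusted p 0.0575) and RiPS2 minus RiPS3. Leaving out 1 array gave 0 to 1 for CRES-3 minus ORMES23, CRES-3 minus RiPS3, CRES-1 minus RiPS1 and RiPS2 minus RiPS3. Against the fibroblasts it gave 4 to 6 for ORMES23, 5 to 6 for CRES-3 and RiPS2, and 4 to 5 for RiPS1 and RiPS3. CRES-1 stayed at 5. The cause was not tested. S100A14 against the fibroblasts also lost its 4 calls with either probe set rule. A replicate block on the letters with only the arrays of both lines, added after seeing the data, gave 2 members in place of 1 for CRES-1 minus RiPS1. A replicate block over all arrays left the counts against the fibroblasts at 6 for ORMES23 and 5 for CRES-1 and CRES-3 and changed no call of these differences. Centring the arrays shifted the median of all genes by at most 0.07 and gave S100A2 a call in RiPS2 against the fibroblasts (-1.05, adjusted p 0.000193; 6 members in place of 5). Values near log2 5 (S100B, S100A1 in fibroblasts, the dimmer S100A6 and S100A14 probe sets) limit what small differences can show.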

Other observations

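Within the induced line RiPS2, array A was the highest of 3 for S100A4 (7.95), S100A6 (11.16), S100A10 (13), S100A11 (11.04) and S100B (5.43), and its means of 10 fibroblast markers were 7.17, 6.68 and 7.42 on arrays A, B and C. Within the fibroblasts, array A was the highest and array B the lowest for S100A2, S100A4, S100A6, S100A10 and S100A14, while S100A11 (13, 12.94 and 12.72) and S100A16 (10.27, 10.20 and 10.03) were lowest on array C. Of the 6 S100A16 probe sets, the brightest correlated with its nearest partner at r = 0.96 over the 18 pluripotent arrays and with the dimmest, which did not pass the filter, at -0.26.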
